A study of Mus musculus with 9 samples.

Results

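The genes for subunits of class I phosphoinositide 3-kinase (PI3K) were followed across mouse ventricles in which the activity of this enzyme had been raised or lowered by a transgene. All probe sets that the platform annotation assigns to Pik3ca, Pik3cd, Pik3r1 or Pik3r2 alone were taken. These were 6 of 12422 probe sets, for 4 of the 8251 genes with a single symbol. Pik3ca and Pik3cd had a brighter and a dimmer probe set, and Pik3r1 and Pik3r2 had 1 each. RNA from ventricle was hybridised to 9 arrays, 1 per mouse, in 3 groups of 3. The caPI3K mice carried a transgene for constitutively active PI3K, the dnPI3K mice a dominant negative form, and NTG mice no transgene and served as controls for both. Per the labels, hearts of wild type littermates were exceeded by 20% in caPI3K mice, and dnPI3K hearts were smaller by 17%. The labels name no strain, age, sex, promoter or construct. As background from the published work on mouse lines of these names, both transgenes act in heart muscle cells under the promoter of the alpha-myosin heavy chain gene. The active form joins a stretch of the regulatory subunit to the catalytic subunit encoded by Pik3ca, and the dominant negative form is a truncated version of that catalytic subunit. Other cell types of the ventricle would then carry no active transgene.

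A class I PI3K is a pair of proteins. The catalytic subunit (p110) adds a phosphate to a membrane lipid, and the product recruits the kinase Akt. The regulatory subunit (p85) stabilises the catalytic one, holds it inactive, and brings it to activated receptors such as those for insulin and insulin-like growth factor. In the heart this pathway is known for its part in physiological growth and in the control of organ size. Pik3ca encodes p110 alpha, the catalytic subunit that acts below growth factor receptors in heart muscle. Pik3cd encodes p110 delta, which is best known from white blood cells. Pik3r1 encodes p85 alpha and, from starts further inside the gene, shorter regulatory proteins, and Pik3r2 encodes p85 beta.

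Pik3r1 and Pik3r2 code for regulatory subunits with the same role but gave different results, so their promoter sequences are shown. Each covers 250 bases before to 50 after a transcript start in RefSeq on the mouse build GRCm38.p6 and is written 5′ to 3′ on the gene's strand. Capitals mark GC boxes (GGGCGG or its reverse complement CCGCCC).
Pik3r1, upstream start, chr13:101768168-101768467, minus strand: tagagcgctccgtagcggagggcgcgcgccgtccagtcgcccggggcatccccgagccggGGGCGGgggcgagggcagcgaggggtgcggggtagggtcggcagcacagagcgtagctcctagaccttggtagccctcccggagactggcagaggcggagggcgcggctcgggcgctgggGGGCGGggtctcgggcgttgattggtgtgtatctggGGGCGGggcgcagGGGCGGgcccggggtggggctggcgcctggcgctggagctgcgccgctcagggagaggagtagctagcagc
Pik3r1, downstream start, chr13:101692581-101692880, minus strand: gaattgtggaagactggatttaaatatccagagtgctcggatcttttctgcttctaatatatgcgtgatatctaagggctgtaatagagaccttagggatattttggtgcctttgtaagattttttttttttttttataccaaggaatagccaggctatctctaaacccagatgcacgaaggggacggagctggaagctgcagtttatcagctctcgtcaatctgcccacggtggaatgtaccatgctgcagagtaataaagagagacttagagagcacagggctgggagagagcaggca
Pik3r2, chr8:70776663-70776962, minus strand: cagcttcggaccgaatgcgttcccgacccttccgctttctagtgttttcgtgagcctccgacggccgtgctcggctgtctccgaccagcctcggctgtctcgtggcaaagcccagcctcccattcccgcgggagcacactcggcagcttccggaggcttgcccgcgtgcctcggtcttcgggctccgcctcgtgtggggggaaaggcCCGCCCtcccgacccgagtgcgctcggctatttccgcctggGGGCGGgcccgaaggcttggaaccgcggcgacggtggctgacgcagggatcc
All 4 genes matched the RefSeq table, with 7 promoters. The starts of Pik3r1 lie 75587 bases apart. The upstream promoter holds 4 GC boxes and the downstream one 0, whereas Pik3r2 holds 2. At least 1 GC box is present in 35.7% of the 32851 promoters of this length, and at least 4 in 5.49%. The other motifs searched on both strands were the FoxO core GTAAACA, the CCAAT box and TATAAA, which are present in 3.65%, 37.4% and 13.6% of all promoters. None of the 7 promoters has the FoxO core. Among the 3 promoters shown, the upstream one of Pik3r1 has 1 CCAAT box and the downstream one has 1 TATAAA. A match is only a run of letters, and the array file does not say which start the measured Pik3r1 RNA came from.

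All values are intensities after quantile normalization, which gives the arrays the same distribution. Intensities depend on the probe as well as on the RNA, so they are compared between arrays and not between probe sets. For the tests, values below the 20th percentile of all values (35.34) were raised to that floor and put on the log2 scale. All 6 probe sets passed the filter of at least 3 arrays above the floor, as did 10645 of the 12422. The brighter Pik3cd probe set was above the floor on 8 of 9 arrays and the dimmer on 5, so the size of change of the dimmer depends on the floor. The other 4 probe sets were above it on all arrays. Group differences come from limma fitted to all 9 arrays, and adjusted p is by the Benjamini-Hochberg method over the 10645 probe sets with a threshold of 0.05. With 3 arrays per group the exact permutation test of a single probe set cannot go below p = 0.1, so calls rest on the spread that limma shares across probe sets.

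Over the tested probe sets, Pearson correlations of log2 values lay at 0.947 to 0.966 for arrays of the same group and at 0.939 to 0.959 for arrays of different groups. The dnPI3K arrays stood apart in control probe sets that do not measure messenger RNA of the heart. The geometric mean of 9 bacterial and phage spike-in controls lay at 1591 to 2012 in the dnPI3K group, at 2618 to 3356 in the NTG group and at 2744 to 3287 in the caPI3K group. The dnPI3K animals also carry numbers from a lower series of their own, whereas caPI3K and NTG animals are numbered in between each other. Transgene and animal series cannot be told apart in dnPI3K. Markers fixed for the ventricular heart muscle cell were bright on every array. Their summed intensity over 8 genes was 215836 to 240473 in NTG, 215553 to 222992 in caPI3K and 223509 to 235003 in dnPI3K. Most of these genes are among the brightest, and quantile normalization gives the brightest ranks the same values on every array. The likeness of the sums is thus partly set by it and does not measure the content of muscle cells. Of these 8 genes 1 passed in dnPI3K against NTG, as higher, beside 2.18% of all tested probe sets that passed in either direction. It was Mybpc3, which encodes a thick filament protein and read 33582.7 to 37393.5 against 24309.8 to 28418.6.

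Pik3ca, the gene whose product the transgenes of the published lines are based on, showed no difference past the threshold on either probe set. The labels name no construct and do not say whether the probes match it, so these values do not check the group labels. The brighter probe set read 526.7, 401.5 and 453.6 on the NTG arrays, 280.0, 362.6 and 519.2 on the caPI3K arrays and 499.7, 673.5 and 580.9 on the dnPI3K arrays. The dnPI3K arrays were high and caPI3K replicate 1 was the lowest, but each pair of groups overlapped. Means were 460.6 ± 62.9 (SD, n = 3) in NTG, 387.2 ± 121 in caPI3K and 584.7 ± 86.9 in dnPI3K. The log2 fold change was -0.29 ± 0.226 (SE) for caPI3K against NTG and 0.34 ± 0.226 for dnPI3K against NTG, with limma adjusted p of 0.838 and 0.544. The largest difference of this probe set, caPI3K against dnPI3K, was -0.63 on the log2 scale with a 95% interval of -1.13 to -0.13. Its unadjusted p was 0.0178, and it did not pass over all probe sets (adjusted p = 0.18).

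The dimmer Pik3ca probe set varied less between the groups. It read 305.8, 261.2 and 362.2 on NTG arrays, 243.0, 306.0 and 361.3 on caPI3K arrays and 297.2, 342.8 and 402.5 on dnPI3K arrays. All groups overlapped. Relative to NTG, the log2 fold change was -0.04 in caPI3K and 0.17 in dnPI3K, and between caPI3K and dnPI3K it was -0.20, each with an SE of 0.217. The 95% interval for dnPI3K against NTG was 0.806-fold to 1.56-fold, and that for caPI3K against NTG 0.700-fold to 1.36-fold. Larger changes of the RNA seen by this probe set lay outside these intervals in either group.

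Pik3cd, the gene of p110 delta, gave no difference past the threshold either, and its probe sets differed from each other. The brighter probe set read 76.5, 132.4 and 155.5 on NTG arrays, 61.2, 82.9 and 34.1 on caPI3K arrays and 152.2, 153.8 and 90.9 on dnPI3K arrays. The caPI3K arrays were low: all 3 lay below the dnPI3K arrays, and their highest exceeded the lowest NTG array. Groups that do not overlap, with caPI3K lower than dnPI3K, were found for 12.3% of all tested probe sets. The log2 fold change was -1.04 ± 0.407 (SE) for caPI3K against NTG, with an unadjusted p of 0.0266 and a limma adjusted p of 0.652. It was -1.19 ± 0.407 for caPI3K against dnPI3K, with an adjusted p of 0.159. The difference between caPI3K and NTG was -0.50 among the animals with numbers from 2800 (2 arrays of each group) and -2.14 among those with numbers from 3100 (1 of each), where the caPI3K array lay below the floor. Raising the floor to the 40th percentile reduced the change against NTG to -0.23.

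The dimmer Pik3cd probe set lay near the floor. It read 28.7, 26.4 and 38.7 on NTG arrays, 51.6, 31.5 and 26.3 on caPI3K arrays and 38.1, 75.1 and 57.4 on dnPI3K arrays. Only 1 array each of NTG and caPI3K exceeded the floor, whereas all 3 dnPI3K arrays did. Its log2 fold changes were 0.14 for caPI3K against NTG and 0.59 for dnPI3K against NTG, each with an SE of 0.296 and neither past the threshold. Against NTG the caPI3K change was thus below 0 on the brighter probe set and above 0 on this one. Of 15 measured markers of white blood cells, where p110 delta is best known, 0 passed in any comparison with limma. Among all tested probe sets, 0.0845% passed in caPI3K and 2.18% in dnPI3K relative to NTG, and 3.24% between the transgenic groups. An unadjusted p under 0.05 was found for 1 marker in caPI3K relative to NTG, beside 6.9% of all tested probe sets. It was found for 2 markers in dnPI3K relative to NTG, beside 14.8%, and for 0 between the transgenic groups, beside 16.4%. The summed intensity of the markers was 3661 to 5707 in the NTG group, 4365 to 4865 in the caPI3K group and 4308 to 5105 in the dnPI3K group. These ranges overlap.

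**Figure D1:**
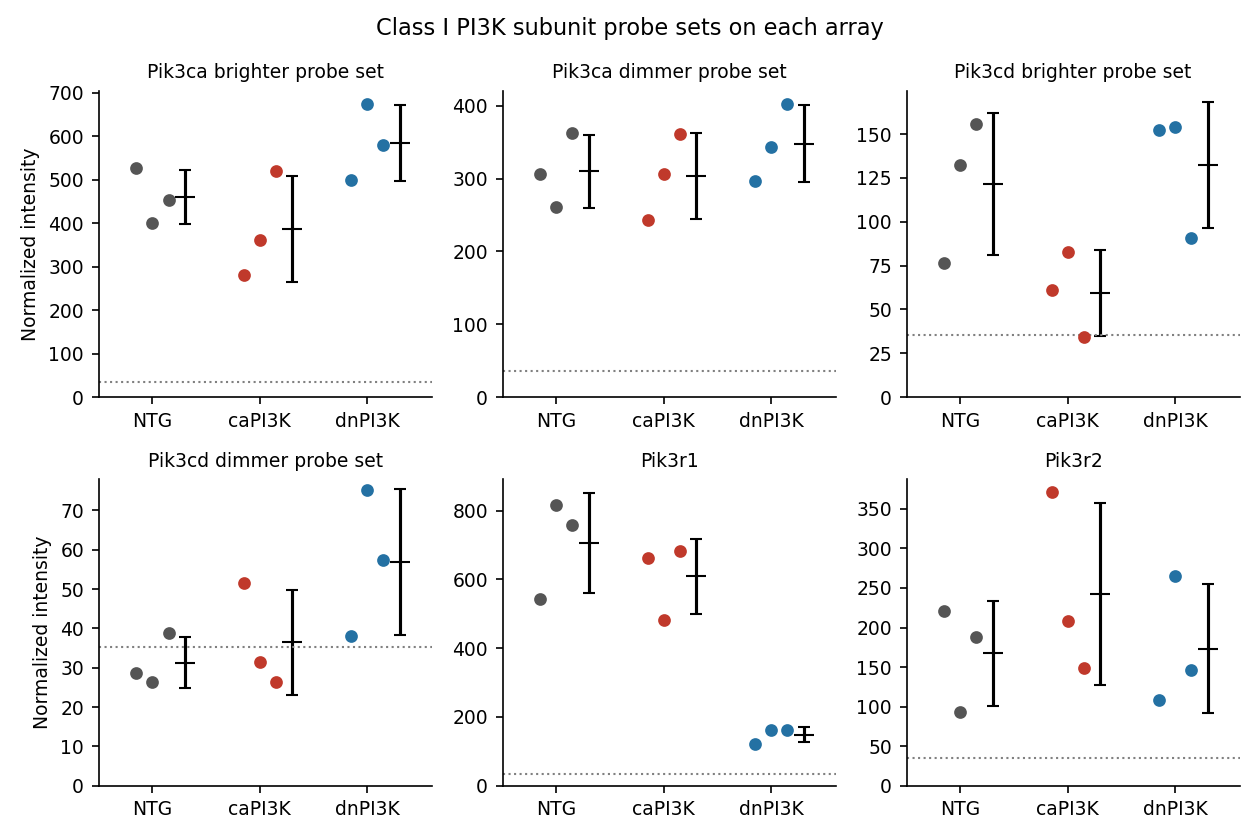
Normalized intensity (linear axis from 0) of each of the 6 probe sets on the 9 arrays. Points are single arrays, black bars give the group mean ± SD (n = 3) and the dotted line marks the floor of 35.34. The 3 dnPI3K arrays of Pik3r1 sit between 122.6 and 161.6, below all 6 other arrays, which lie between 482.4 and 817.3.

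Pik3r1, the gene of p85 alpha, fell in dnPI3K ventricles. It read 542.1, 817.3 and 759.7 on NTG arrays, 661.4, 482.4 and 683.1 on caPI3K arrays and 122.6, 161.6 and 160.8 on dnPI3K arrays. The NTG and caPI3K arrays overlapped, and all dnPI3K arrays read below the lowest array of either. Groups separated in these directions were found for 9.21% of all tested probe sets in dnPI3K against NTG and for 11.4% in caPI3K against dnPI3K. Means were 706.3 ± 145 (SD, n = 3) in NTG, 609.0 ± 110 in caPI3K and 148.3 ± 22.3 in dnPI3K. The order of levels was NTG, caPI3K and dnPI3K, and the first pair did not differ beyond its spread.

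Against NTG the fall in dnPI3K was 4.73-fold, with a 95% interval of 3.39-fold to 6.58-fold (limma adjusted p = 0.000574). Among the 10645 probe sets its p was the 12th smallest in this comparison, and 8 probe sets had a more negative log2 fold change. Between caPI3K and dnPI3K the level was 4.09-fold higher in caPI3K, with a 95% interval of 2.94-fold to 5.70-fold (adjusted p = 0.000851). For caPI3K against NTG the log2 fold change was -0.21 ± 0.216 (SE), with an adjusted p of 0.878. The 95% interval of that difference ran from 0.621-fold to 1.20-fold. It was -0.24 in animals numbered from 2800 and -0.15 in those numbered from 3100. Whether the Pik3r1 probes match the regulatory stretch described for the published active transgene is not known. The caPI3K values are thus not shown to come from the mouse's own Pik3r1 alone. In bulk ventricle RNA, fewer cells that express a gene and less of its RNA per cell cannot be told apart.

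Other measures also moved with the dnPI3K group. The control for 18S ribosomal RNA at its 3′ end had a mean of 6224 ± 2704 (SD, n = 3) on the dnPI3K arrays, against 536.1 ± 118 with NTG and 519.6 ± 38.1 with caPI3K. Of 5 atrial marker genes 2 fell in dnPI3K against NTG, Myl4 and Myl7, which encode atrial myosin light chains. Nppa, the atrial natriuretic peptide gene of the same list, stood the other way without passing, at 8414 to 11231 in dnPI3K against 1553 to 6840 in NTG and 1450 to 3527 in caPI3K, and makes up most of the dnPI3K sum. The atrial list summed to 8719 to 11353 for dnPI3K, 2169 to 21121 for NTG and 2438 to 13506 for caPI3K. Of 8 skeletal muscle markers on the array 7 were tested and 2 fell, Myl1 and Casq1. The skeletal muscle list summed to 3678 to 4594 in dnPI3K, 8411 to 11890 in NTG and 15014 to 21853 in caPI3K. Myl1 and Casq1 make up most of the NTG and caPI3K sums, and not every gene of the list followed them. Mylpf read 190.0 to 212.7 in caPI3K, 242.9 to 290.9 in NTG and 163.2 to 249.6 in dnPI3K. Of 5 smooth muscle markers 4 were tested and 1 rose, Acta2, and the list summed to 3895 to 4709 in dnPI3K, 2504 to 2987 in NTG and 1926 to 2424 in caPI3K. Beside these marker calls, 2.18% of all tested probe sets passed in dnPI3K against NTG. In the same comparison 0 genes passed in the endothelial (7 tested), fibroblast (8 tested), erythroid (2 tested) and adipocyte (3 tested) lists. None of the genes of the atrial, skeletal muscle and smooth muscle lists on the array was below the floor on all arrays. Within groups Myl4 varied widely. On the NTG arrays it read 6896.1, 3668.9 and 222.7, where Pik3r1 read 542.1, 817.3 and 759.7. On the caPI3K arrays it read 498.6, 421.4 and 4303.9, where Pik3r1 read 661.4, 482.4 and 683.1. The part of the ribosomal control and of the atrial, skeletal muscle, smooth muscle and ventricular markers in the Pik3r1 difference was not tested.

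Pik3r2, the gene of p85 beta, showed no difference past the threshold and varied most within groups among the probe sets above the floor on every array. It read 220.6, 93.0 and 188.2 on NTG arrays, 371.0, 208.3 and 148.9 on caPI3K arrays and 108.3, 264.7 and 146.8 on dnPI3K arrays. The groups overlapped in each comparison. Its coefficient of variation was 39.6% in NTG, 47.4% in caPI3K and 47.0% in dnPI3K, against at most 20.5% in any group for Pik3r1. Relative to NTG, the log2 fold change was 0.52 ± 0.455 (SE) in caPI3K and 0.04 ± 0.455 in dnPI3K, and between caPI3K and dnPI3K it was 0.48 ± 0.455. The 95% interval for dnPI3K against NTG ran from 0.513-fold to 2.06-fold, so changes of Pik3r2 up to these sizes lay within the error. Within animals numbered from 2800 the caPI3K difference was 0.96, and within those numbered from 3100 it was -0.34.

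Counted together, 0 of the 6 probe sets passed for caPI3K against NTG, where 0.0845% of all tested probe sets did, and 1 had an unadjusted p under 0.05, as did 6.9% of all. For dnPI3K against NTG 1 passed, as lower, beside 1.16% of all tested probe sets called lower. For caPI3K against dnPI3K 1 passed, as higher, beside 1.7% of all called higher. In both cases the probe set was that of Pik3r1. The median log2 fold change of the 6 was -0.12, 0.16 and -0.33 in these comparisons, and that of all tested probe sets was close to 0 in each. The 3 comparisons share arrays, so these counts are not independent of each other.

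**Figure D2:**
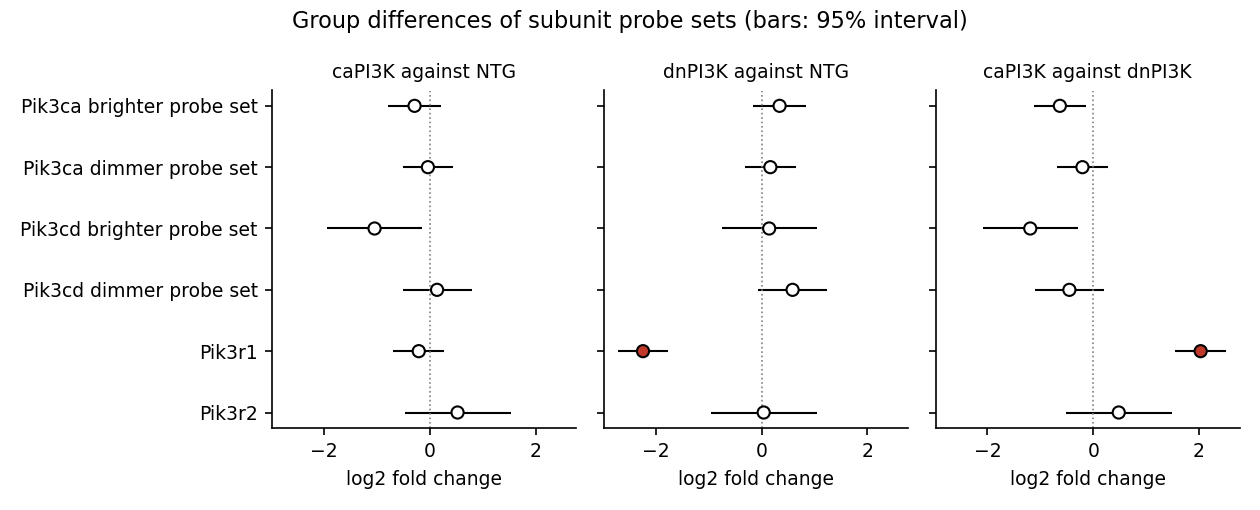
Log2 fold change of each of the 6 probe sets (horizontal axis) in the 3 comparisons, with 95% intervals from limma as bars. Filled points have an adjusted p under 0.05. Pik3r1 is the filled point in dnPI3K against NTG (-2.24) and in caPI3K against dnPI3K (2.03), and the other 5 probe sets are open in every panel.

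The Pik3r1 difference did not hang on 1 array or on the normalization. With each array left out in turn, the log2 fold change of dnPI3K against NTG lay between -2.43 and -2.11 and that of caPI3K against dnPI3K between 1.90 and 2.18. Over all 20 alternatives, the limma adjusted p ranged from 0.000248 to 0.0109 for the former and from 0.000292 to 0.00869 for the latter. For caPI3K against NTG the adjusted p was at least 0.718 in each of the 20. The deposited values, which were not quantile normalized between arrays, gave -2.27 for dnPI3K against NTG.

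**Figure D3:**
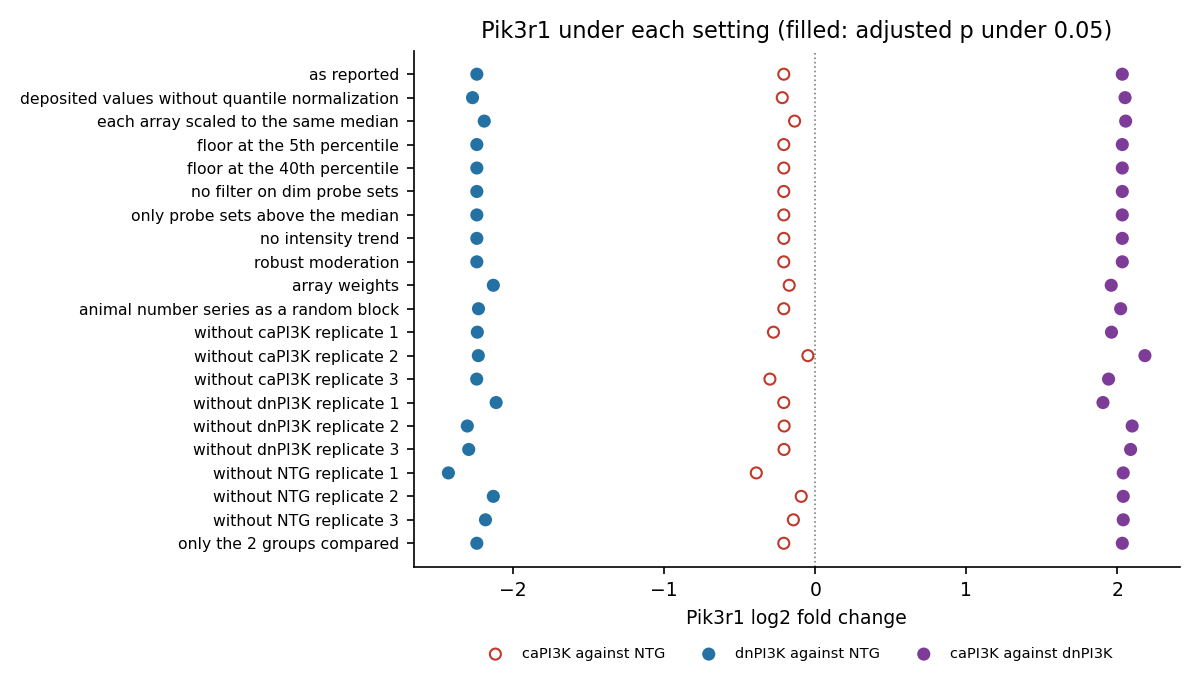
Log2 fold change of Pik3r1 (horizontal axis) as reported and under the 20 alternatives (vertical axis), 1 colour per comparison. Filled points have an adjusted p under 0.05. The points for dnPI3K against NTG stay between -2.43 and -2.11, and every point for caPI3K against NTG is unfilled.

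Pik3r1 was 1 of 280 probe sets (2.63%) past the threshold of the moderated F test over the 3 groups, and the only one of the 6 to pass it (adjusted p = 0.00058). The 5 genes whose pattern over the 9 arrays was nearest to that of Pik3r1 were Ggnbp2, Gdap10, Atp7a, Ppara and Rbm39. Nearness is the root mean square difference of log2 values after each probe set was centred on its own mean, and was 0.28, 0.34, 0.37, 0.37 and 0.40 for these genes. They were chosen for this likeness, so their values are a description. Ggnbp2 had means of 243.6 ± 48.9 in NTG, 277.0 ± 40.9 in caPI3K and 72.0 ± 21.2 in dnPI3K (SD, n = 3). Ppara, a nuclear receptor for fatty acids, had means of 1729 ± 125, 1674 ± 37.2 and 500.5 ± 142 in the same order. Gdap10 differed most between dnPI3K and NTG, by -2.81 on the log2 scale.

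Second probe sets of these genes did not all show the pattern. Atp7a, a copper transporter, changed by -1.51 in dnPI3K against NTG on the probe set named here and by -1.13 on its other one. Rbm39, an RNA-binding protein that takes part in splicing, changed by -1.52 on the probe set named here and by 0.25 on its other one. Pik3r1 itself has a single probe set on this array, so its fall has no second probe set to be set beside.

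**Figure D4:**
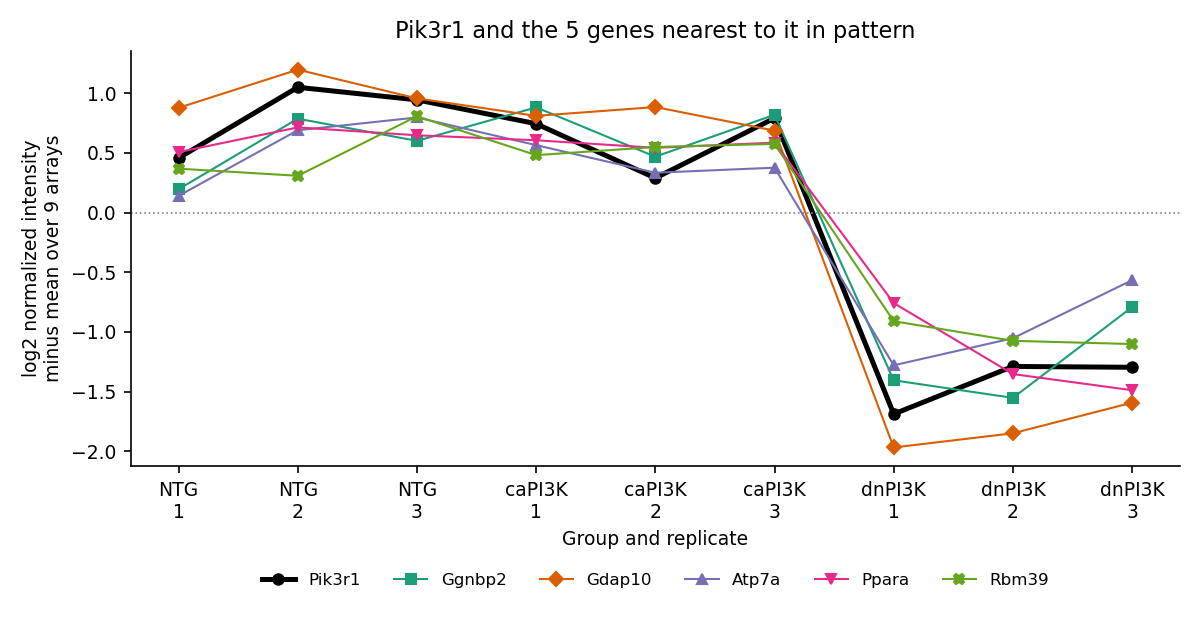
Log2 normalized intensity of Pik3r1 (thick black line) and the 5 genes nearest to it in pattern, each minus its mean over the 9 arrays (vertical axis), by group and replicate (horizontal axis). Lines join the arrays only to guide the eye. All 6 genes lie below their mean on the 3 dnPI3K arrays and above it on the other 6 arrays.

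The rest of the pathway was taken from a list of 144 genes in 8 roles, of which 100 were on the array with 149 probe sets, and 133 of these were tested. For caPI3K against NTG 0 of the 133 passed with limma, and 12 had an unadjusted p under 0.05, which 6.9% of all tested probe sets had. For dnPI3K against NTG 2 rose and 1 fell (2.26%, beside 2.18% of all tested probe sets), and the median log2 fold change was 0.05. An unadjusted p under 0.05 was found for 24 of them, beside 14.8% of all. For caPI3K against dnPI3K 2 were higher and 6 lower in caPI3K (6.02%, beside 3.24% of all), with a median of -0.04, and 22 had an unadjusted p under 0.05, beside 16.4% of all. Over all tested probe sets the median was 0.00 in each comparison. Except for Irs2 in caPI3K against dnPI3K, each of these calls was lost when at least 1 array was left out.

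Among receptors, ligands and adaptors, Irs2, the adaptor that links the insulin receptor to p85, rose in dnPI3K. It read 158.3, 148.9 and 107.4 on NTG arrays, 49.1, 44.4 and 91.5 on caPI3K arrays and 342.9, 491.1 and 398.2 on dnPI3K arrays. No group overlapped another. Of all tested probe sets, 9.91% were likewise separated with dnPI3K above NTG, 5.59% with caPI3K below NTG and 12.3% with caPI3K below dnPI3K. The log2 fold change was 1.58 ± 0.331 (SE) for dnPI3K against NTG (limma adjusted p = 0.04) and -2.80 ± 0.331 for caPI3K against dnPI3K (adjusted p = 0.00138). The call between caPI3K and dnPI3K was kept without each of the 9 arrays in turn (-3.12 to -2.58), whereas that of dnPI3K against NTG was kept only without caPI3K replicate 2 or 3. For caPI3K against NTG it was -1.22 and did not pass (adjusted p = 0.453). The other genes named here by the rule, the growth factor receptor Igf1r (-0.46 in caPI3K and -0.43 in dnPI3K against NTG) and the adaptor Irs1 (-0.07 and 0.96), did not pass. Irs1 had a mean below the floor in NTG (33.3), so its changes depend on the floor.

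Among Akt and its regulators, both measured Akt genes were higher in dnPI3K than in caPI3K. Akt2, the form most tied to insulin action, lay at 1079 to 1244 in NTG, 1143 to 1189 in caPI3K and 1460 to 1940 in dnPI3K ventricles. It rose by 0.57 ± 0.117 (SE) in dnPI3K against NTG (limma adjusted p = 0.0352), a call that was kept only without dnPI3K replicate 3, and was at -0.56 in caPI3K against dnPI3K (adjusted p = 0.0286). Akt1, the form most tied to growth, had means of 992.8 ± 265 in NTG, 782.5 ± 101 in caPI3K and 1455 ± 69.2 in dnPI3K. It differed by -0.90 ± 0.171 between caPI3K and dnPI3K (adjusted p = 0.0175), and its rise of 0.58 against NTG did not pass (adjusted p = 0.124). Hsp90aa1, a chaperone that binds Akt, was 0.71 higher in caPI3K than in dnPI3K (adjusted p = 0.0178), with a second, dim probe set at -0.76. The Akt1 call was lost without caPI3K replicate 2 or 3 or dnPI3K replicate 2 or 3, and that of Hsp90aa1 without caPI3K replicate 2 or dnPI3K replicate 2 or 3. The Akt2 call between caPI3K and dnPI3K was lost without any 1 of the caPI3K arrays or without dnPI3K replicate 1 or 2.

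Further down the pathway, Eif4ebp2, which restrains translation until mTOR phosphorylates it, fell in dnPI3K against NTG on 1 of its 3 probe sets. That probe set read 557.0 to 667.4 in NTG, 355.9 to 814.6 in caPI3K and 125.7 to 283.7 in dnPI3K ventricles (log2 fold change -1.72 ± 0.330 SE, limma adjusted p = 0.0275). The brightest Eif4ebp2 probe set, with a mean of 2666 in NTG, changed by 0.04 ± 0.093 (SE), and the dimmest by 0.44. The dimmest had means below the floor in NTG (33.2) and caPI3K (22.4), so its changes depend on the floor. Between caPI3K and dnPI3K the probe set that fell differed by 1.46 (adjusted p = 0.0404), the brightest by -0.23 and the dimmest by -0.59. The call against NTG was lost without dnPI3K replicate 1 or 3 or NTG replicate 1 or 2, and the other call without these or caPI3K replicate 1 or 3. Sesn1, a restraint on mTOR signalling (-0.33 in caPI3K and 0.08 in dnPI3K against NTG), and Mtor itself (0.33 and 0.36) did not pass.

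Foxo3, a transcription factor that Akt keeps out of the nucleus, was lower in caPI3K than in dnPI3K, with a log2 fold change of -1.06. Its means were 741.6 ± 115 in caPI3K and 1537 ± 107 in dnPI3K, with NTG at 965.7 ± 448 (limma adjusted p = 0.0489 for caPI3K against dnPI3K). With 1 array left out in turn this call was kept only without NTG replicate 1 or 3, and the difference lay at -1.18 to -0.99. The autophagy genes Map1lc3b and Gabarapl1, listed among FoxO targets, were lower in caPI3K than in dnPI3K as well, with log2 fold changes of -0.40 and -0.52 (adjusted p = 0.0412 and 0.0428). Both calls were lost without any 1 of the caPI3K arrays or without dnPI3K replicate 2 or 3, and that of Map1lc3b also without NTG replicate 1 or 2. A second Map1lc3b probe set differed by -0.19 and did not pass. In all, 2 of 24 FoxO target probe sets (8.33%, beside 3.24% of all tested) passed in that comparison, 12 were above 0 and 12 below, with a median of 0.03. The remaining genes named by the rule for these roles did not pass, among them Cdkn1a, an inhibitor of the cell cycle (0.72 in caPI3K and 0.76 in dnPI3K against NTG), Tsc2 (-0.02 and 0.31) and Igfbp1 (-0.85 and -0.82). Second probe sets changed by -0.46 for Cdkn1a, 0.16 for Igfbp1 and -0.15 for Mtor in dnPI3K against NTG. The first Igfbp1 probe set had means below the floor in caPI3K (27.4) and dnPI3K (25.7), so its changes depend on the floor.

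No probe set passed in limma for the other PI3K family (6 tested), the lipid phosphatases (11 tested) or the Rac branch (18 tested). For caPI3K against NTG, 0, 1 and 4 probe sets of these roles had an unadjusted p under 0.05, beside 6.9% of all tested probe sets. For dnPI3K against NTG the numbers were 0, 2 and 2, beside 14.8% of all, and for caPI3K against dnPI3K 0, 2 and 0, beside 16.4% of all. In the PI3K family the genes named by the rule were Pik3c2a, a class II enzyme (0.49 in caPI3K and -0.14 in dnPI3K against NTG), Pi4ka, a kinase that supplies the lipid upstream (0.12 and 0.31), and Pik3c3, the class III enzyme (-0.10 and -0.65). A second, dimmer Pi4ka probe set stood at -0.91 and 0.23, and a second, brighter Pik3c2a probe set at -0.14 and -0.10. The first Pik3c2a probe set had means below the floor in NTG (23.4) and dnPI3K (12.4), so its changes depend on the floor. Among the lipid phosphatases Inpp5b changed by 1.12 and 0.64 on one probe set and by -0.35 and 0.12 on the other, Mtm1 by -0.05 and 0.64 (second probe set -0.03 and 0.18) and Inppl1 by 0.21 and 0.17. In the Rac branch Cyth3, an exchange factor that binds the PI3K product, changed by 1.16 and 0.97 (second, brighter probe set -0.05 and -0.16), its relative Cyth1 by 0.81 and 1.43 and the GTPase Rac2 by -0.30 and -0.24.

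**Figure D5:**
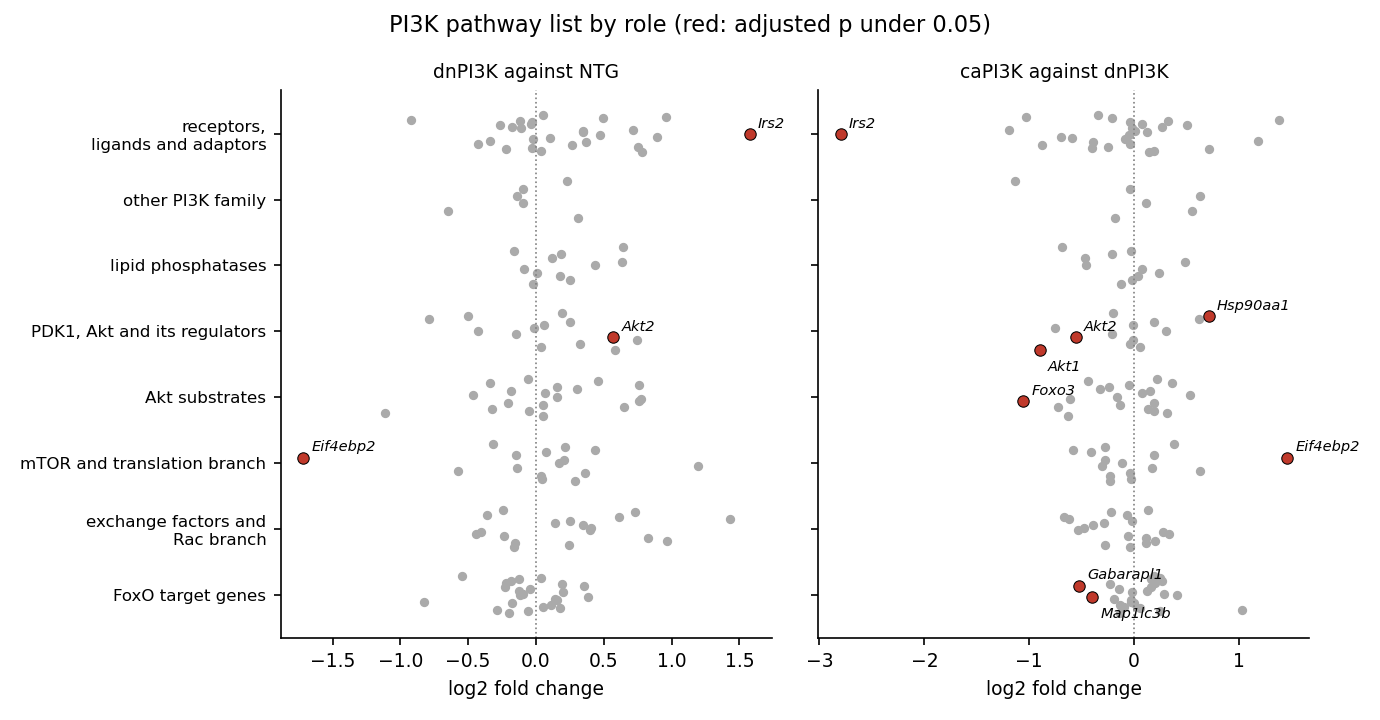
Log2 fold change (horizontal axis) of the 133 tested probe sets of the pathway list by role (vertical axis), for dnPI3K against NTG and caPI3K against dnPI3K. Each point is a probe set, spread vertically within its role, and red points with names have an adjusted p under 0.05. The 3 red points on the left are Irs2, Akt2 and Eif4ebp2, and the lowest value on the right is that of Irs2 (-2.80).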

How the data were processed

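Total RNA from the ventricles of 9 mice was measured on 1-colour oligonucleotide arrays scanned at a photomultiplier setting of 10%, per the labels. The deposited table holds 1 intensity per probe set and array on a linear scale. Which software made these intensities is not stated by the labels. Per the deposited values, the 2% trimmed mean was 500.4 on each array, so the values had been scaled before deposition. Depth does not apply to arrays, and their number limits the precision. Groups were read from the sample titles, and replicates are numbered in accession order, which pairs no mice. Nothing states that animals came from separate litters.

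The platform annotation gives 1 symbol to 10855 probe sets, several to 396 and none to 1237. Intensities were quantile normalized over 9 arrays, set to at least the 20th percentile (35.34, the floor) and put on the log2 scale. Of 12488 probe sets, 66 controls were left out after normalization, and those above the floor on at least 3 arrays were tested. Group was the single term in limma 3.58.1 (R 4.3.3, intensity trend, 6 residual degrees of freedom before moderation), two-sided, with Benjamini-Hochberg adjustment. SD is of normalized intensities, and SE and 95% intervals are moderated. The procedure was tested on simulated data.

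The members, the lists and the tests were chosen with earlier results of these data known. Named genes were all member probe sets, pathway genes past the threshold in any comparison, the 3 genes with the smallest F-test p in each role, and the 5 genes nearest in pattern to each member past the F test. For a pathway gene the probe set with the smallest p is given. Alternatives changed normalization, floor, filter, moderation, array weights, samples in the fit and the animal number series as a random block, or left out 1 array. Promoter sequences are from RefSeq (GRCm38.p6). The array table names no build.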

Additional observations from a re-analysis of the deposited data

Results flagged for a closer look

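Pik3r1 differed between both transgenic groups under the same contrast with NTG. Its log2 fold change was -0.21 in caPI3K and -2.24 in dnPI3K, and the difference between them was 2.03 (limma adjusted p = 0.000851). All 3 caPI3K arrays lay above the 3 dnPI3K arrays, as was the case for 11.4% of all tested probe sets. It is not known whether the caPI3K values include RNA of the transgene.

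A signal outside the measurement of messenger RNA also stood out. The array control for the 3′ end of 18S ribosomal RNA averaged 6224 on dnPI3K arrays (3265 to 8567), against 450.5 to 670.6 on NTG arrays and 475.8 to 545.0 on caPI3K arrays. The control for the middle of 18S ribosomal RNA read 227.8 to 553.3 on dnPI3K, 42.6 to 69.1 on NTG and 41.0 to 48.2 on caPI3K arrays. That for its 5′ end overlapped between the groups. Control probe sets were left out of the tests. The dnPI3K arrays with this signal are those on which both Pik3r1 calls rest, and its part in these calls was not tested.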

How the results depend on the processing

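In each of the 20 alternatives the same number of subunit probe sets passed: 0, 1 and 1 in the 3 comparisons. Of 310 recomputed log2 fold changes of the other results on single probe sets, 0 crossed the threshold and 8 changed sign. For Pik3r2 in dnPI3K against NTG the sign changed with the deposited values (-0.0534), with the floor at the 40th percentile (-0.0318) and with 1 array left out (-0.34 to 0.33). With 1 array left out it also changed for the dimmer Pik3ca (-0.17 to 0.12) and Pik3cd (-0.0440 to 0.23) probe sets in caPI3K against NTG and the brighter Pik3cd probe set in dnPI3K against NTG (-0.16 to 0.39). Where a filter removed a Pik3cd probe set it has no value.

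The pathway counts were less stable, and the cause was not tested. For dnPI3K against NTG (3 as reported) the count was 5 with the floor at the 40th percentile, 6 with a random block for the animal series, 0 without an intensity trend or without a filter, and 0 to 4 with 1 array left out. Leaving out dnPI3K replicate 1 gave 0, and 1 was left in the absence of NTG replicate 1 or 2, dnPI3K replicate 2 or 3, or caPI3K replicate 1. For caPI3K against dnPI3K (8 as reported) it was 1 without a trend or without a filter, and 2 to 8 with 1 array left out. It was 2 without caPI3K replicate 2 or 3 or dnPI3K replicate 2 or 3, 3 without caPI3K replicate 1, and 5 without dnPI3K replicate 1 or NTG replicate 2. No paired analysis was possible because the labels give the groups no shared replicate numbers. The animal series, which caPI3K and NTG share, entered as the random block above and changed no call of a subunit probe set. The estimated correlation within series was -0.0889. The subunit calls all involve dnPI3K, whose animals form a series of their own. For these calls the block cannot separate series from transgene. Probe sets near the floor, such as those of Pik3cd, limit what these arrays can show.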
